A study of Mus musculus with 14 samples.

Results

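The 62 genes described here encode subunits of the nuclear RNA polymerases and proteins that process ribosomal RNA in the nucleolus. They are among 55357 genes in the count files. They were taken by symbol alone: every symbol that starts with Polr1, Polr2 or Polr3, those made of Utp, Nop or Rrp followed by a number, and Fbl, Ncl, Npm1 and Dkc1, without pseudogenes marked -ps, which removed 3 symbols. By known role, 30 are polymerase subunits, 31 are nucleolar factors and 1, Polr1has, is an antisense gene of Polr1h. All 62 passed the low-count filter, which kept 12915 genes.

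Livers of 8 model and 6 control samples were compared, all from male C57BL/6 mice aged 5 to 6 weeks and acclimatised for 1 week. The model group received LPS, the lipopolysaccharide of bacterial outer membranes, at 10 µg/kg and D-galactosamine (D-GalN) at 300 mg/kg into the peritoneum, a model of acute liver failure. The control group received saline, and livers of both groups were taken 24 h after injection. No label says that each sample is a separate animal, so p-values measure only the spread between these samples, part of which may be technical.

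Eukaryotic nuclei divide transcription between 3 RNA polymerases. RNA polymerase I (Pol I) makes the large ribosomal RNA precursor in the nucleolus, Pol II makes messenger RNA and most small nucleolar RNAs, and Pol III makes transfer RNA and the smallest ribosomal RNA. The enzymes share several small subunits, and each has its own largest subunit. In the nucleolus, small nucleolar ribonucleoproteins (snoRNPs) modify the precursor, and a large complex called the small subunit processome folds and cuts it. D-GalN is metabolised mainly in hepatocytes, where it traps uridine nucleotides that RNA synthesis draws on.

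Total counts in genes were 10329469 to 16639972 in model and 7914120 to 14463540 in control libraries. The summed level of 8 hepatocyte markers was 76043 to 86351 CPM (counts in every 1000000 counts of a library) in model and 49764 to 71647 CPM in control, so the labelled tissue showed its defining genes in every library. Taken singly, 2 of the 8 were higher, 0 were lower and 6 had no call, and the CPM ranges of the groups overlapped for each. Summed markers of neutrophils were at 1262 to 2883 CPM in model and 4.15 to 16.9 CPM in control, where Ly6g was at 0 in all libraries, and all 10 markers were higher. Of 8 monocyte markers, 7 were higher (summed 514 to 1107 against 104 to 662 CPM), as were 5 of 6 tested T and NK cell markers. All 5 erythroid markers were higher (summed 1210 to 25560 CPM in model against 422 to 1611 in control), as were all 5 cholangiocyte markers (59.8 to 125 against 31.0 to 56.4 CPM). Of 6 stellate cell markers, 3 were higher and 2 lower (summed 301 to 609 against 163 to 212 CPM), of 8 Kupffer cell markers 3 and 2, and of 7 endothelial markers 2 and 3. Of 9 tested markers of dividing cells, 3 were higher and 1 lower. The 3 tested B cell markers had no call. In bulk tissue, fewer cells of a type and less RNA per cell cannot be told apart, and the part of these cell types in the changes below was not tested. Sample values below are CPM that also take in TMM factors, and folds come from edgeR's quasi-likelihood test over all genes.

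Nucleolar factors were higher in the model livers in 13 of 31 cases and lower in 2, while polymerase subunits were higher in 2 of 30 cases and lower in 6. Calls were made at an adjusted p under 0.05. Over all genes tested, 26.6% were called higher and 21.3% lower, 47.9% in all. The members as a whole, with 15 higher, 9 lower and 38 without a call, were called at 24 of 62, a smaller share than over all genes. At least 2-fold, 13 members were higher and 3 lower, against 20.3% and 12.7% of all genes. The median log2 fold change was 0.46 for nucleolar factors, -0.46 for polymerase subunits and 0.0099 for all genes tested. Model and control CPM were fully apart for 4 members that were higher (Polr3d, Nop56, Nop58 and Rrp9) and 2 that were lower (Rrp36 and Polr1has). Over all genes this held for 14.6% higher and 8.63% lower, or 23.2% together. Scaling moved the balance of directions: when library totals alone scaled the counts, 10 members were higher and 19 lower, and the median of all genes moved to -0.23. Without control 6, which overlapped the model range for several subunits, 15 members and 11 polymerase subunits were called lower.

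**Figure D1:**
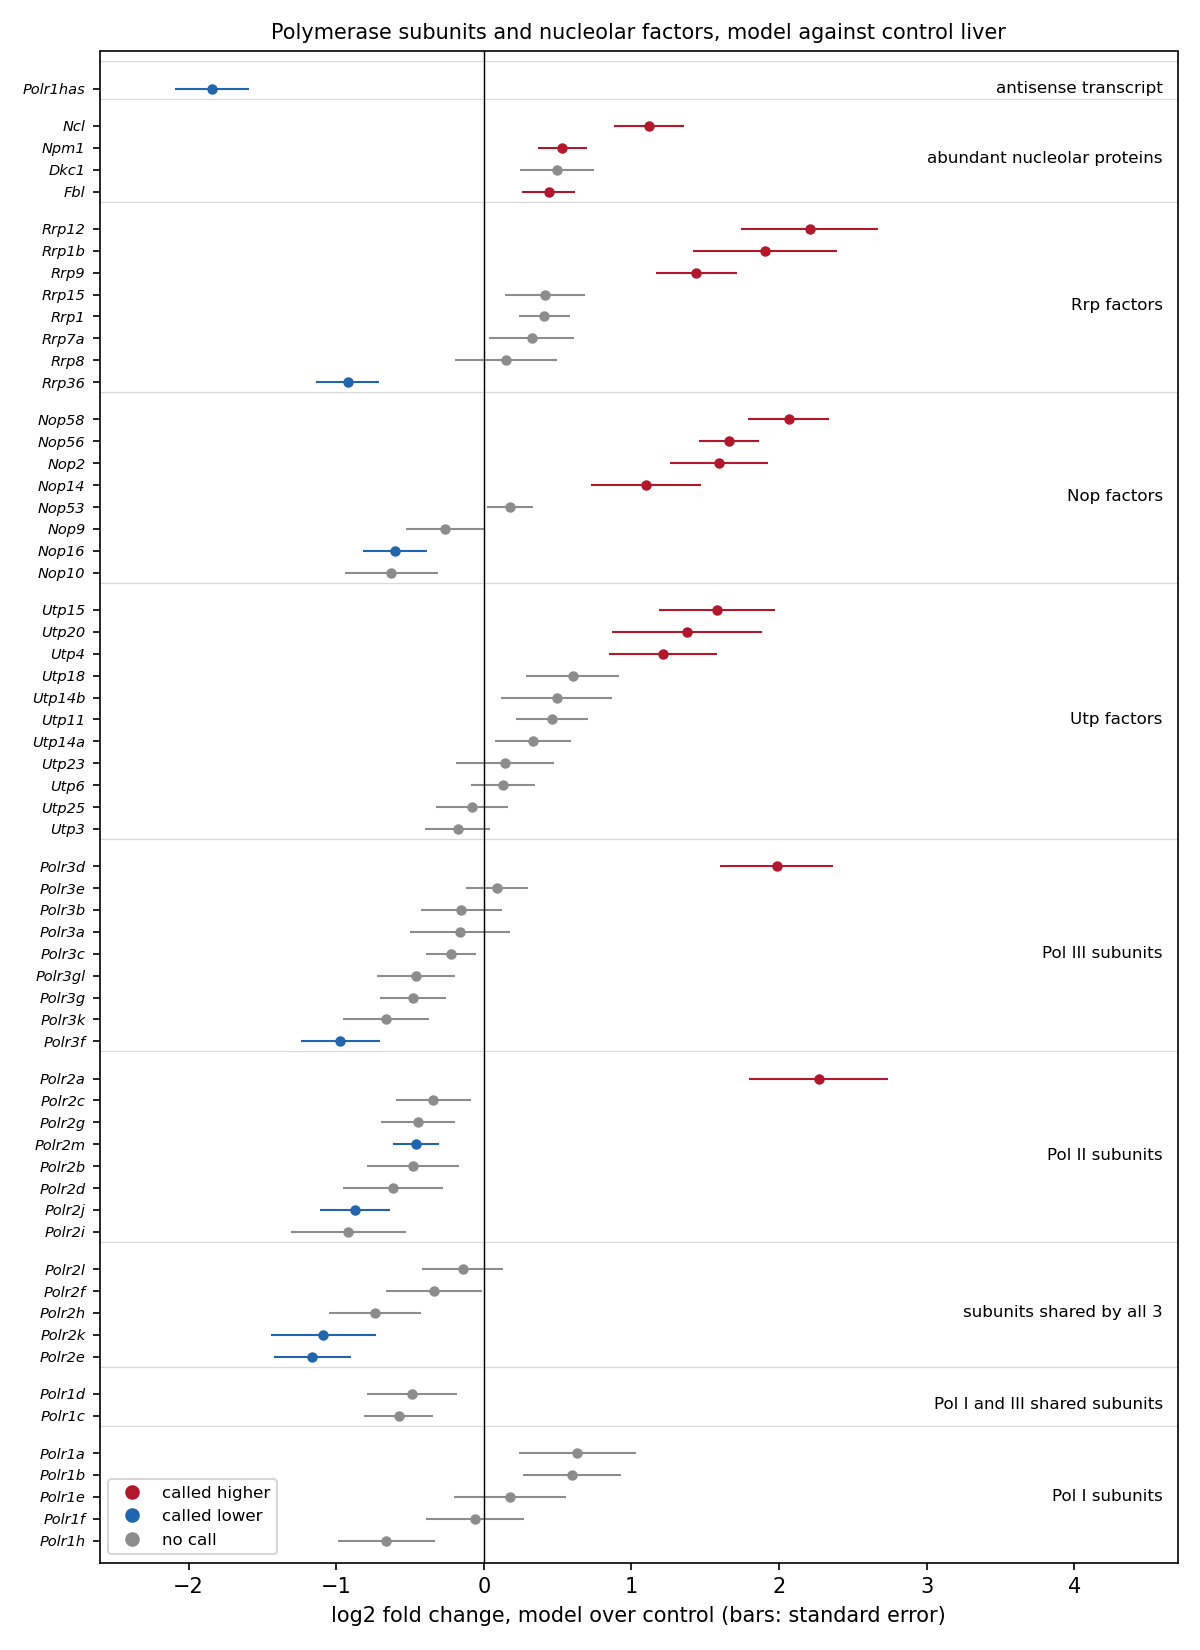
Log2 fold change of model over control (horizontal axis) with its standard error for the members, grouped by role; 1 member is not drawn. Red points were called higher, blue points lower and grey points had no call at an adjusted p under 0.05; most red points are nucleolar factors, and Polr2a and Polr3d are the 2 subunits in red.

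Gene starts of the members differed in sequence, and 6 windows are shown: the 2 box C/D snoRNP genes with the lowest adjusted p among nucleolar factors, Nop2 and Utp4 as called nucleolar genes with the letters CACGTG, the largest Pol II subunit, which rose, and the shared subunit that fell most. Each runs 5′ to 3′ from 250 bases before to 50 bases after the RefSeq start (build GRCm38.p6). Capitals mark CACGTG, the E-box that Myc-type factors are known to bind, and GGGCGG or its reverse complement CCGCCC, the core of a GC box.
Nop56 (chr2:130274162-130274461, plus strand): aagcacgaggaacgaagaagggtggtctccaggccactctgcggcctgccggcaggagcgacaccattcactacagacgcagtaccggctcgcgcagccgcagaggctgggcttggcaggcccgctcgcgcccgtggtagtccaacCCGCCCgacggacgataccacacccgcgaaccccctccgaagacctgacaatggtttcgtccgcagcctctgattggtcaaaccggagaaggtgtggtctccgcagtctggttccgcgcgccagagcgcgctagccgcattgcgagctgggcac
Nop58 (chr1:59684756-59685055, plus strand): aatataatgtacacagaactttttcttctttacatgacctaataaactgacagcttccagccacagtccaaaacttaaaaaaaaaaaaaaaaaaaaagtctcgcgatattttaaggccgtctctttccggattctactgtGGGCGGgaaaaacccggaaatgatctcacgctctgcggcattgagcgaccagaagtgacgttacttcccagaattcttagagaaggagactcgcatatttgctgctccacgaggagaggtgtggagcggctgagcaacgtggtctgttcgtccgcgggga
Nop2 (chr6:125131633-125131932, plus strand): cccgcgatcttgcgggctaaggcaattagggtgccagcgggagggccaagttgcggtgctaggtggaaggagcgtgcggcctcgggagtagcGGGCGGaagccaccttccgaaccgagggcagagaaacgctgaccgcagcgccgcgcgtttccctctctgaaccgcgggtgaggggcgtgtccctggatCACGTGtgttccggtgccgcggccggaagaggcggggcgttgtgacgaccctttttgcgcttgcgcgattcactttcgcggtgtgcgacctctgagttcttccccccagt
Utp4 (chr8:106893390-106893689, plus strand): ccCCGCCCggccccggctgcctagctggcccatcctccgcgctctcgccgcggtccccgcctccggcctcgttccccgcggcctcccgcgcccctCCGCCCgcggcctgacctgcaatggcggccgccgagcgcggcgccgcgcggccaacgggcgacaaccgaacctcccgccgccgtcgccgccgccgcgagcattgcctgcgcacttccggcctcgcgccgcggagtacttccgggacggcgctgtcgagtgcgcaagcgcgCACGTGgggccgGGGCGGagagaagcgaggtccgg
Polr2a (chr11:69758584-69758883, minus strand): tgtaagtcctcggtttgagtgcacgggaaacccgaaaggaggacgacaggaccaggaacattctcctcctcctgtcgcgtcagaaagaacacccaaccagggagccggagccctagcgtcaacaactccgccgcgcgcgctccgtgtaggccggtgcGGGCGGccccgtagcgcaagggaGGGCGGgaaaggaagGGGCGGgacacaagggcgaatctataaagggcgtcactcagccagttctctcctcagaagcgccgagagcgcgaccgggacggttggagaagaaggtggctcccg
Polr2e (chr10:80039610-80039909, minus strand): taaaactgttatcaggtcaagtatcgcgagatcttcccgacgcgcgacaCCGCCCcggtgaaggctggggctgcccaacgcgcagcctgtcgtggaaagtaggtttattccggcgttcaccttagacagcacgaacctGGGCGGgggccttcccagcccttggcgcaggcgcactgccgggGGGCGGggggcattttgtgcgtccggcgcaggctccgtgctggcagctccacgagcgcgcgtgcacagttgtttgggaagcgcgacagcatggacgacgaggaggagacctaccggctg
A RefSeq window was found for 49 of 62 members. CACGTG, which reads the same on both strands, was in 7 of 24 nucleolar windows and 4 of 24 polymerase windows, against 10.4% of 9812 tested genes with a window and 7.24% of 27025 genes in the table. Among nucleolar factors it was in 3 of 10 windows of genes called higher (Nop2, Utp4 and Utp20) and in 4 of 14 of the others. GGGCGG on either strand was in 9 of 10 windows of nucleolar factors called higher, in 7 of 14 of the others and in 62.4% of tested genes. A pair of other motifs was searched on either strand: CCGGAAG was in 6 of 24 nucleolar windows (18.2% of tested genes) and CCAAT in 11 of 24 (38.9%). The motifs were chosen after the members' values had been seen, and a match describes letters in a window, not binding.

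Box C/D snoRNPs guide methylation of ribosomal RNA, and 3 of their core proteins rose. Nop56 (ENSMUSG00000027405.17), a scaffold protein of these particles, was at 25.7, 40.5 and 56.9 CPM (lowest, median and highest) in model and at 10.5, 12.4 and 14.1 CPM in control. All 8 model libraries lay above all 6 controls, a 3.17-fold difference (log2 fold change 1.66, SE 0.20, adjusted p = 2.79e-06). Nop58 (ENSMUSG00000026020.10), its partner in the same particle, was at 28.5, 49.4 and 96.4 CPM in model and 9.63, 13.5 and 16.4 CPM in control, again without overlap. It was 4.18-fold higher (log2 fold change 2.06, SE 0.27, adjusted p = 7.51e-06). Fbl, the methyltransferase fibrillarin, was at 27.6, 40.2 and 51.1 CPM in model and 24.0, 28.7 and 36.9 CPM in control. Its ranges overlapped and its difference was small, 1.36-fold (log2 fold change 0.44, SE 0.18, adjusted p = 0.0493). That call was lost when any 1 of 10 of the 14 libraries was left out (all but model 2, 3 and 4 and control 1), with adjusted p from 0.0569 to 0.0978, and with library totals (adjusted p = 0.361). It was also lost with upper-quartile factors (0.192), DESeq2 size factors (0.0673), no low-count filter (0.121), the length and GC offset (0.0519), and without model 7 and model 8 together (0.0693). The log2 ratio of Nop56 to Nop58 counts within a library was -0.44 ± 0.54 in model livers (SD, n = 8) and -0.086 ± 0.404 in control (SD, n = 6), a difference of -0.36 (exact permutation test, two-sided, adjusted p = 0.295 over 6 pairs). The annotated exons of Nop56 hold Snord57, a small nucleolar RNA gene, and those of Nop58 hold Gm26293. Whether reads there were counted for the host gene or left out as ambiguous between genes is not known.

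Box H/ACA particles convert uridines of ribosomal RNA to pseudouridine, and neither of their core proteins among the members was called. Dkc1, the pseudouridine synthase dyskerin, was at 9.59, 14.0 and 29.9 CPM in model and 9.63, 10.3 and 13.8 CPM in control. Model 5 was the lowest library and model 7 the highest, so that the control range lay within the model range (log2 fold change 0.50, SE 0.25, adjusted p = 0.112). Nop10, a small structural protein of the particle, was at 39.6 to 94.1 CPM in model and 36.2 to 176 CPM in control (log2 fold change -0.63, SE 0.32, adjusted p = 0.113). With library totals or without control 6, Nop10 was called lower. The log2 ratio of Fbl to Dkc1, methylation against pseudouridine enzyme, was 1.45 ± 0.45 in model livers (SD, n = 8) and 1.43 ± 0.42 in control (SD, n = 6), a difference of 0.022 (exact permutation test, two-sided, adjusted p = 0.936 over 6 pairs).

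The most abundant members by CPM in model livers were Ncl and Npm1, nucleolin and nucleophosmin, RNA-binding and chaperone proteins of the nucleolus, and both rose. Ncl was at 139, 188 and 316 CPM in model and 54.3, 89.99 and 147 CPM in control. Control 6, the highest control, lay above model 5, the lowest model library, and no other libraries crossed. Ncl was 2.17-fold higher (log2 fold change 1.12, SE 0.24, adjusted p = 0.000856), and its annotated exons hold the small RNA gene Snora75. Npm1 was at 166, 206 and 235 CPM in model and 117, 135 and 186 CPM in control, 1.45-fold higher (log2 fold change 0.53, SE 0.17, adjusted p = 0.0132). The Npm1 call was lost with library totals (adjusted p = 0.091) and with upper-quartile factors (0.06). Per exonic length Npm1 was the higher of the pair, at 76.8 ± 9.50 CPM per kb in model (SD, n = 8) against 19.4 ± 5.43 for Ncl. That length joins all annotated exons, 2.665 kb for Npm1 and 10.188 kb for Ncl. The log2 ratio of Ncl to Npm1 counts was -0.082 ± 0.354 in model livers (SD, n = 8) and -0.68 ± 0.71 in control (SD, n = 6). The difference of 0.60 did not pass (exact permutation test, two-sided, adjusted p = 0.111 over 6 pairs), but did without control 6, where it was 0.80 (adjusted p = 0.0155).

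**Figure D2:**
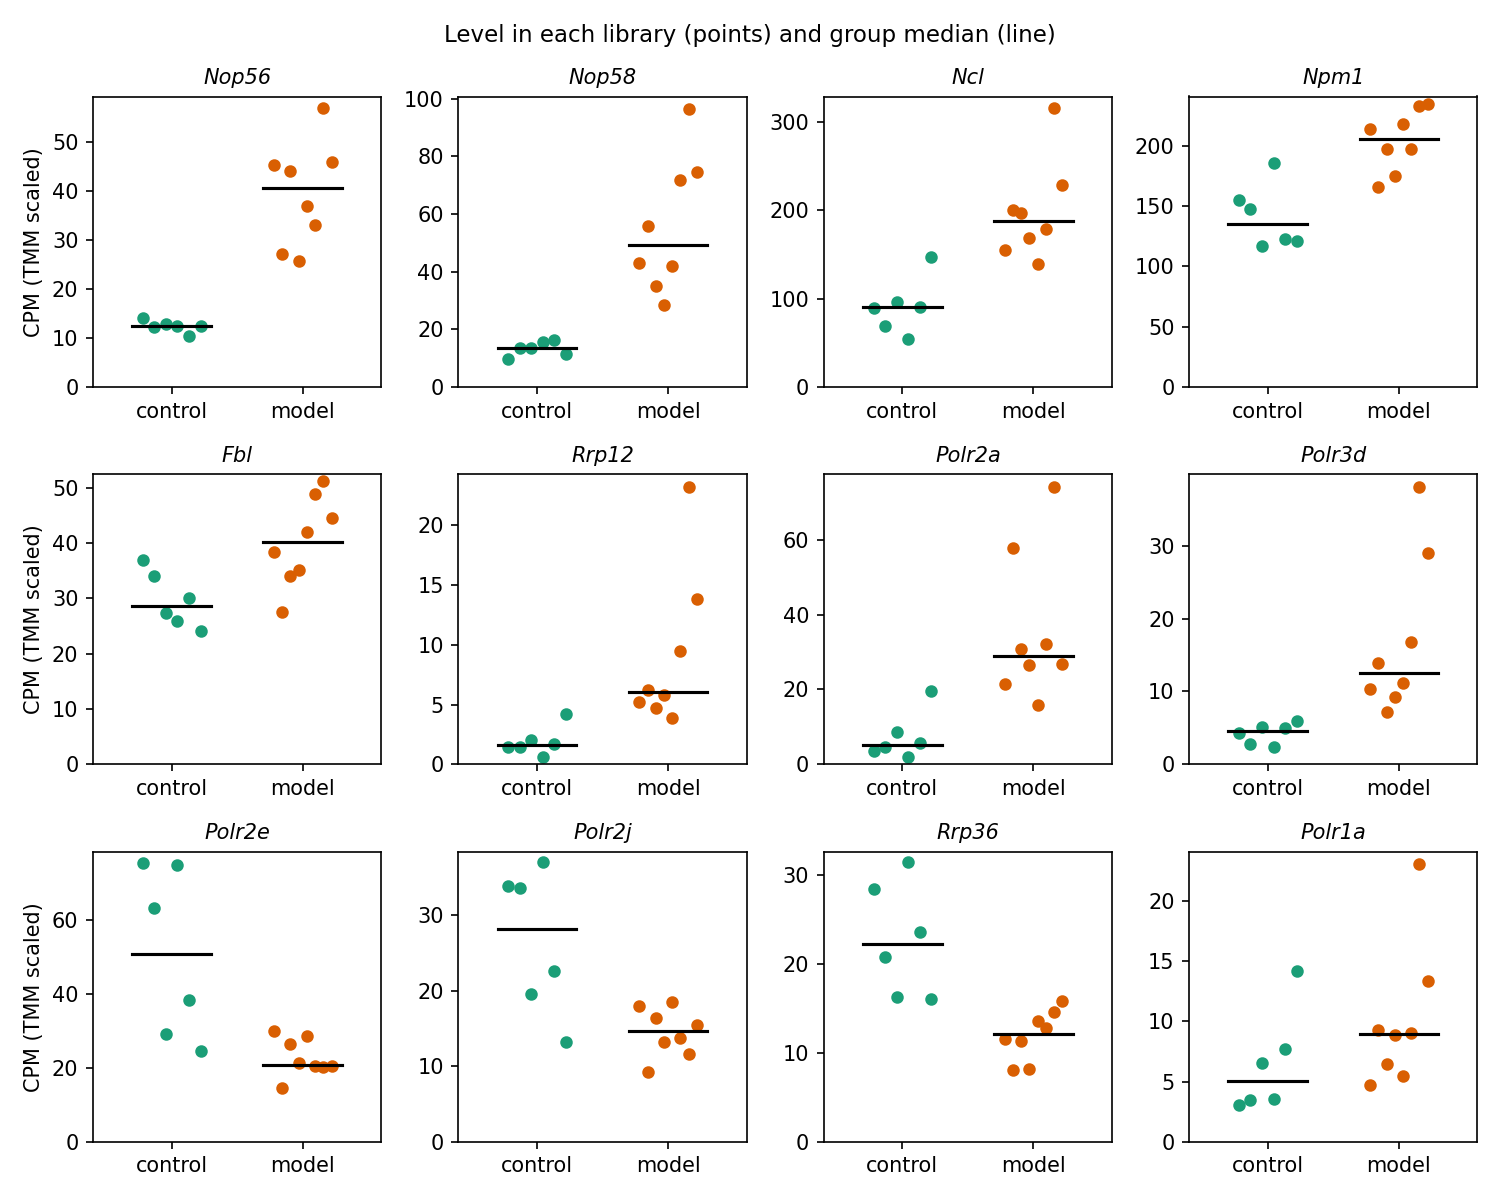
CPM in each library (points) with the group median (line) for 12 members, on linear axes that start at 0, control in green and model in orange. All model points lie above all control points for Nop56, Nop58 and Polr3d, and below them for Rrp36.

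Of 8 Nop-numbered genes, 4 rose and 1 fell, against 26.6% higher and 21.3% lower over all genes tested. Besides Nop56 and Nop58, Nop2, a methyltransferase of the large ribosomal RNA, was at 13.2, 19.4 and 46.5 CPM in model and 4.67, 7.47 and 14.7 CPM in control. Only control 6 reached into the model range, and Nop2 was 3.02-fold higher (log2 fold change 1.59, SE 0.33, adjusted p = 0.000758). Nop14, a processome protein, was 2.14-fold higher (log2 fold change 1.10, SE 0.37, adjusted p = 0.0213), with 8.07 to 33.9 CPM in model and 3.96 to 13.5 CPM in control. Its call was lost without control 2 (adjusted p = 0.0516) or control 4 (0.0538), with library totals (0.105), and without model 7 and model 8 together (0.112). Nop16, an assembly factor of the large ribosomal subunit, fell: it was at 18.4, 34.1 and 37.4 CPM in model and 28.1, 49.4 and 61.0 CPM in control. This 1.52-fold difference (log2 fold change -0.60, SE 0.22, adjusted p = 0.0286) was lost without model 4 or control 1, 2 or 4 (adjusted p from 0.054 to 0.075), without model 3 and model 4 together (0.074) and without a low-count filter (0.0515). Nop9 and Nop53 had no call, with log2 fold changes of -0.26 and 0.18. Without model 7 and model 8 together, Nop9 was called lower. Nop9 overlaps Cideb and Nop14 overlaps Gm15522 on the other strand. Reads in these overlaps may have been counted or left out as ambiguous between genes. Which holds is not known, since the strand setting of the counting is not given in the sources used here.

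Of 11 Utp-numbered genes, proteins of the small subunit processome, 3 rose and 0 fell by edgeR. The share called higher, 27.3%, was near the 26.6% over all genes tested, of which 21.3% were called lower. Utp genes that were lower at an unadjusted p under 0.05, by DESeq2's Wald test or by limma-voom also numbered 0. Utp15 and Utp4 belong to the part that joins the precursor during transcription. Utp15 was at 5.43, 9.83 and 27.6 CPM in model and 2.44, 3.59 and 6.62 CPM in control, 2.99-fold higher (log2 fold change 1.58, SE 0.39, adjusted p = 0.00303). Utp4 was at 9.28, 14.1 and 45.5 CPM in model and 5.78, 8.56 and 12.5 CPM in control. For both, the lowest model library lay within the control range and model 7 was the highest of all. Utp4 was 2.32-fold higher (log2 fold change 1.21, SE 0.37, adjusted p = 0.0112), without a call with library totals (adjusted p = 0.0571). Utp20, a very large scaffold protein of the late processome, was at 3.33, 9.13 and 35.1 CPM in model and 2.33, 3.66 and 10.9 CPM in control (log2 fold change 1.38, SE 0.51, adjusted p = 0.0337). This call was lost without any 1 of model 7, model 8 and controls 1 to 5, with adjusted p from 0.0534 to 0.0882. It was also lost with library totals (0.0997), with limma-voom (0.066), without a low-count filter (0.0518) and without model 7 and model 8 together, where the log2 fold change was 0.60 (adjusted p = 0.237). The other 8 Utp genes had log2 fold changes from -0.18 (Utp3) to 0.60 (Utp18). Among them, Utp11 and Utp18 were called higher without model 3 and model 4 together.

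Of 8 Rrp-numbered genes, 3 rose and 1 fell, against 26.6% higher and 21.3% lower over all genes tested. Rrp9, the protein that marks the U3 particle of the processome, was at 9.81, 19.0 and 33.6 CPM in model and 6.46, 6.67 and 7.96 CPM in control. The controls were tight and none reached the lowest model library, a 2.71-fold difference (log2 fold change 1.44, SE 0.27, adjusted p = 0.000337). Rrp12, which accompanies the small subunit out of the nucleus, was at 3.91, 6.02 and 23.1 CPM in model and 0.579, 1.61 and 4.21 CPM in control. Only control 6 overlapped the model range, and the difference was 4.62-fold (log2 fold change 2.21, SE 0.46, adjusted p = 0.000797). Rrp1b, a nucleolar factor of large subunit assembly, was at 2.31, 4.69 and 19.2 CPM in model and 0.955, 1.45 and 2.95 CPM in control (log2 fold change 1.90, SE 0.49, adjusted p = 0.00378). Its log2 fold change was 1.17 without model 7 and model 8 (adjusted p = 0.0134). Rrp36, needed for early cuts of the small subunit precursor, went the other way, at 8.09, 12.2 and 15.8 CPM in model and 16.0, 22.2 and 31.5 CPM in control. The ranges did not overlap, and Rrp36 was 1.89-fold lower (log2 fold change -0.92, SE 0.21, adjusted p = 0.0018). Rrp1, Rrp7a, Rrp8 and Rrp15 had no call, with log2 fold changes from 0.15 to 0.41. Rrp1 was called higher by DESeq2's Wald test, by limma-voom and with the length and GC offset. The same held without model 3, without model 3 and model 4 together, and without control 6. Rrp8 overlaps Ilk and Rrp7a overlaps Serhl on the other strand.

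Model 7 and model 8 held the highest nucleolar levels. One of these 2 libraries was the highest model library in 27 of 31 nucleolar factors, and they were the top pair in 24. Among the 13 called higher, model 7 was the highest in 12. The median deviation of the 8 Nop genes from the control mean was 1.43 and 1.15 (log2) in model 7 and model 8, 0.70 in model 6 and 0.030 to 0.45 in the other model libraries. Without model 7 and model 8, 10 nucleolar factors were still called higher and 3 lower, and their median log2 fold change was 0.24. Nop56 then had a log2 fold change of 1.55 and Nop58 of 1.84. All members together held 0.227% and 0.212% of the counts of model 7 and model 8. Their share was 0.116% to 0.172% elsewhere in the model group and 0.153% to 0.180% among controls.

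**Figure D3:**
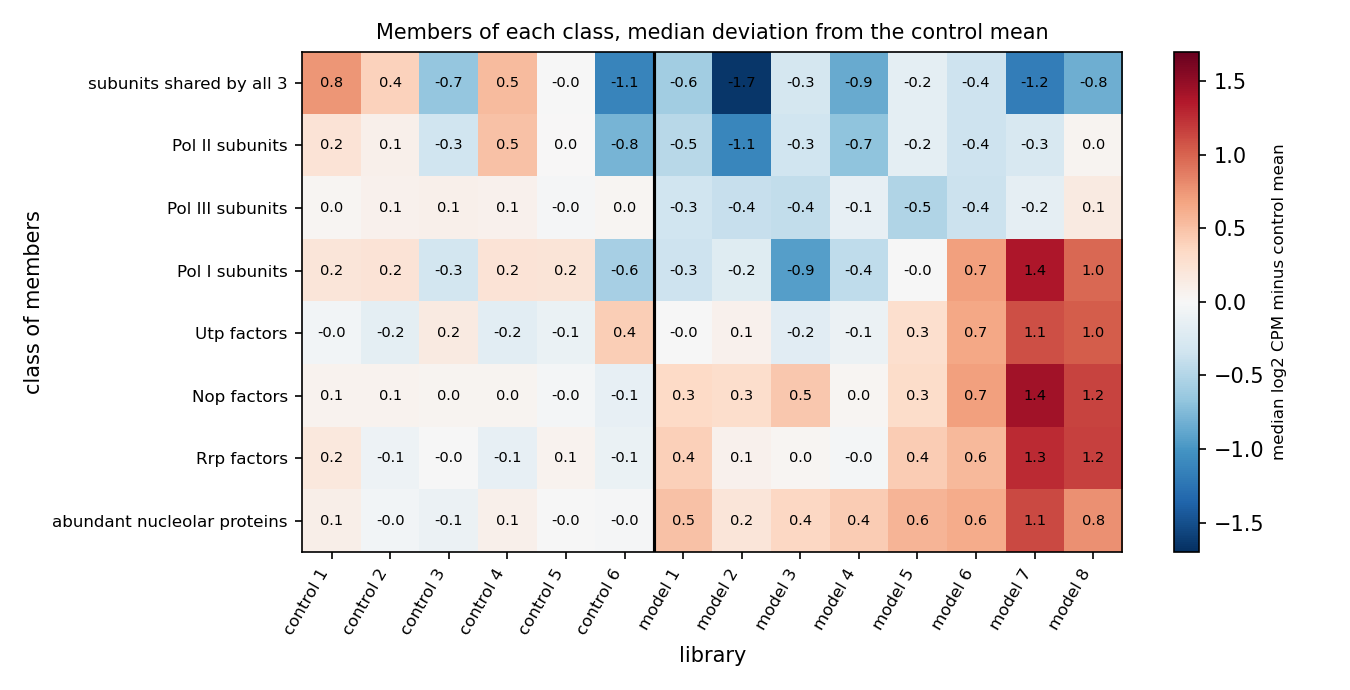
Median over the members of a class (rows) of log2 CPM minus the control mean, in each library (columns; controls left of the line), with red above and blue below the control mean. Model 7 and model 8 are reddest for Pol I subunits and nucleolar classes, and the shared subunits are bluest in model 2, model 7 and control 6.

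Pol II subunits moved against each other. Polr2a (ENSMUSG00000005198.16), the largest subunit, whose tail coordinates messenger RNA processing, was at 16.0, 28.8 and 73.9 CPM in model and 1.93, 5.13 and 19.5 CPM in control. Control 6 was the only control within the model range. Polr2a was 4.82-fold higher (log2 fold change 2.27, SE 0.47, adjusted p = 0.000692), and without control 6 the log2 fold change was 2.90. The second-largest subunit, Polr2b, had no call (log2 fold change -0.48, adjusted p = 0.218) but was called lower without model 7 and model 8 together. All 7 Pol II subunits other than Polr2a had negative log2 fold changes under every alternative run. Polr2j, a small subunit of the enzyme's assembly platform, was at 9.23, 14.6 and 18.5 CPM in model and 13.2, 28.1 and 37.0 CPM in control. The controls spread widely, with control 6 inside the model range, and Polr2j was 1.83-fold lower (log2 fold change -0.87, SE 0.24, adjusted p = 0.00546). Polr2m, a Pol II-associated protein that restrains the enzyme, was at 42.9, 46.9 and 67.1 CPM in model and 64.5, 68.2 and 84.5 CPM in control. Model 8 was the only model library within the control range. Polr2m was 1.38-fold lower (log2 fold change -0.46, SE 0.16, adjusted p = 0.0209), a call lost without a low-count filter (adjusted p = 0.086), with the length and GC offset (0.0858) and without model 3 and model 4 (0.0681). Polr2i had a log2 fold change of -0.92 without a call (adjusted p = 0.0616). It was called lower with library totals, upper-quartile factors, the length and GC offset and DESeq2's Wald test. The same held without model 3, model 5, control 3 or control 6, and without model 3 and model 4 together. Polr2j overlaps Lrwd1, Polr2i Tbcb, Polr2c Dok4 and Polr2b Igfbp7 on the other strand.

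Of the 5 subunits present in all 3 enzymes, 2 fell, against 21.3% of all genes tested. All 5 had negative log2 fold changes with TMM factors (Polr2l turned to 0.02 with the length and GC offset). Polr2e (ENSMUSG00000004667.19) was at 14.6, 20.9 and 30.0 CPM in model and 24.5, 50.9 and 75.5 CPM in control. Control 3 and control 6 lay within the model range and the other 4 controls above it. Polr2e was 2.24-fold lower (log2 fold change -1.16, SE 0.26, adjusted p = 0.00139). Polr2k was at 6.42, 11.8 and 19.6 CPM in model and 7.82, 22.5 and 48.6 CPM in control, 2.12-fold lower (log2 fold change -1.09, SE 0.36, adjusted p = 0.0185). Its call was lost without control 1 (adjusted p = 0.053), without control 4 (0.0726) and without model 7 and model 8 together (0.0671). Polr2f, Polr2h and Polr2l had log2 fold changes of -0.34, -0.74 and -0.14 without a call. Polr2h was near the threshold (edgeR adjusted p = 0.0589). It was called lower with library totals, with upper-quartile factors and with DESeq2's size factors or Wald test. The same held without model 7, without model 8, without both, and without control 3 or control 6. The pair shared by Pol I and Pol III also had no call, with Polr1c at -0.58 (adjusted p = 0.0503) and Polr1d at -0.49 (adjusted p = 0.198). Polr1c lay near the threshold and was called lower with the length and GC offset, with DESeq2's size factors or Wald test, with upper-quartile factors, with library totals, and without model 1, control 3 or control 6 (adjusted p from 0.0052 to 0.0487). Polr1d was called lower with library totals (adjusted p = 0.0336).

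The 5 members found only in Pol I had no call in either direction by edgeR, DESeq2's Wald test or limma-voom. None had an edgeR p under 0.05 before adjustment. Another Pol I subunit, held under its older symbol Cd3eap, falls outside the symbol rule and is not covered here. Polr1a, the largest, was at 4.74, 8.92 and 23.1 CPM in model and 3.08, 5.04 and 14.2 CPM in control. Model 7 was the highest library and control 6 came next (log2 fold change 0.63, SE 0.40, adjusted p = 0.198). Without control 6, Polr1a was called higher (log2 fold change 1.08, adjusted p = 0.0273). Polr1b, Polr1e, Polr1f and Polr1h had log2 fold changes of 0.60, 0.18, -0.06 and -0.66. Polr1h was called lower with library totals (adjusted p = 0.0482), with upper-quartile factors (0.033) and without model 7 and model 8 together (0.0247). The median deviation of the Pol I subunits was 1.37 in model 7 and 0.98 in model 8, and -0.93 to 0.69 in the other model libraries. Polr1has, the antisense gene of Polr1h, which the annotation used here lists as protein coding, was at 3.47, 5.95 and 8.42 CPM in model and 12.8, 20.5 and 32.3 CPM in control. The ranges did not overlap, and it was 3.58-fold lower (log2 fold change -1.84, SE 0.25, adjusted p = 1.14e-05). Its exons overlap no exon of Polr1h but do overlap Gm27735 on the other strand.

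Among the subunits found only in Pol III, Polr3d rose and Polr3f fell. Polr3d, which acts with partner subunits in start and termination, was at 7.25, 12.5 and 38.0 CPM in model and 2.41, 4.63 and 6.02 CPM in control. Every model library lay above every control, and Polr3d was 3.96-fold higher (log2 fold change 1.98, SE 0.38, adjusted p = 0.000373). Polr3f, which contacts the initiation factor TFIIIB, was at 1.85, 3.54 and 6.35 CPM in model and 5.52, 7.78 and 10.1 CPM in control (log2 fold change -0.97, SE 0.27, adjusted p = 0.00627). Polr3a, the largest subunit, was at 2.55, 3.44 and 9.36 CPM in model and 2.65, 4.26 and 9.19 CPM in control (log2 fold change -0.16, SE 0.34, adjusted p = 0.714), and its log2 fold change was 0.16 without control 6. Polr3b, Polr3c, Polr3e and Polr3k had log2 fold changes from -0.66 (Polr3k) to 0.09 (Polr3e) and no call. Polr3k was called lower with library totals, upper-quartile factors, the length and GC offset or DESeq2's Wald test, and without model 5 or control 6.

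Polr3g and Polr3gl encode alternative versions of the same Pol III subunit, and neither was called. Polr3g, known from stem and tumour cells, was at 2.84, 4.08 and 6.57 CPM in model and 4.11, 5.95 and 7.24 CPM in control (log2 fold change -0.48, SE 0.22, adjusted p = 0.0813). Polr3gl, the form of most adult tissues, was at 2.86, 7.28 and 10.6 CPM in model and 6.79, 10.2 and 12.5 CPM in control (log2 fold change -0.46, SE 0.26, adjusted p = 0.163). Polr3g was called lower with library totals (adjusted p = 0.0311), with upper-quartile factors (0.0342), without model 2 (0.0486) and without model 4 (0.0323), and Polr3gl with library totals (0.0279). Per exonic length, Polr3gl was at 6.20 ± 1.25 CPM per kb in control (SD, n = 6) and Polr3g at 1.52 ± 0.283. Their log2 ratio of counts was -0.68 ± 0.70 in model livers (SD, n = 8) and -0.71 ± 0.45 in control (SD, n = 6), with no difference past the threshold (0.031; exact permutation test, two-sided, adjusted p = 0.936 over 6 pairs).

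**Figure D4:**
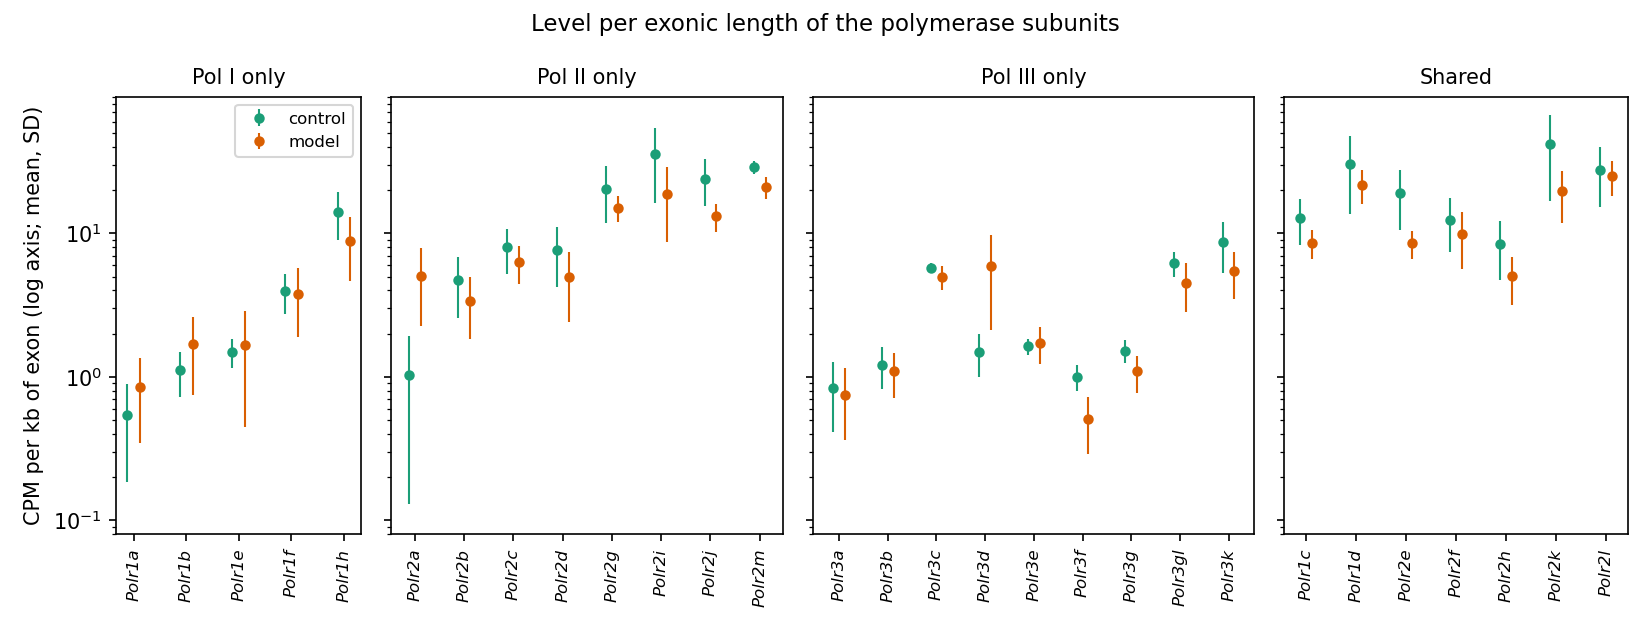
Mean CPM per kb of exon, on a log axis with the SD over libraries, for the polymerase subunits drawn here, in control (green) and model (orange). Polr2a goes from 1.03 to 5.05 CPM per kb, and the small shared subunits and those of Pol II have the highest levels of the plot.

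The balance between the largest subunits of the 3 enzymes differed between the groups. In control livers Polr2a was at 1.03 ± 0.902 CPM per kb (SD, n = 6), Polr3a at 0.839 ± 0.428 and Polr1a at 0.541 ± 0.356, levels whose spreads overlap. In model livers Polr2a was at 5.05 ± 2.80 CPM per kb (SD, n = 8), Polr1a at 0.845 ± 0.498 and Polr3a at 0.751 ± 0.391. The length used joins all annotated exons, 11.871 kb for Polr1a, 7.067 kb for Polr2a and 5.828 kb for Polr3a. Levels per kb of different genes thus depend on the annotation. Ratios of counts within a library do not depend on library scaling. The log2 ratio of Polr1a to Polr2a was -2.63 to -1.01 in model and -0.46 to 0.87 in control, without overlap. The mean difference of -1.81 had p = 0.000333 by a two-sided exact permutation test, the smallest its 3003 assignments can give (adjusted p = 0.000999 over 6 pairs). The log2 ratio of Polr3a to Polr2a was -3.96 to -2.15 in model and -1.08 to 0.48 in control. Its difference of -2.65 had the same p and adjusted p by the same exact test. Both ratios were lower in 8 of 8 model libraries than the control median. Both ratios share Polr2a, which rose.

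**Figure D5:**
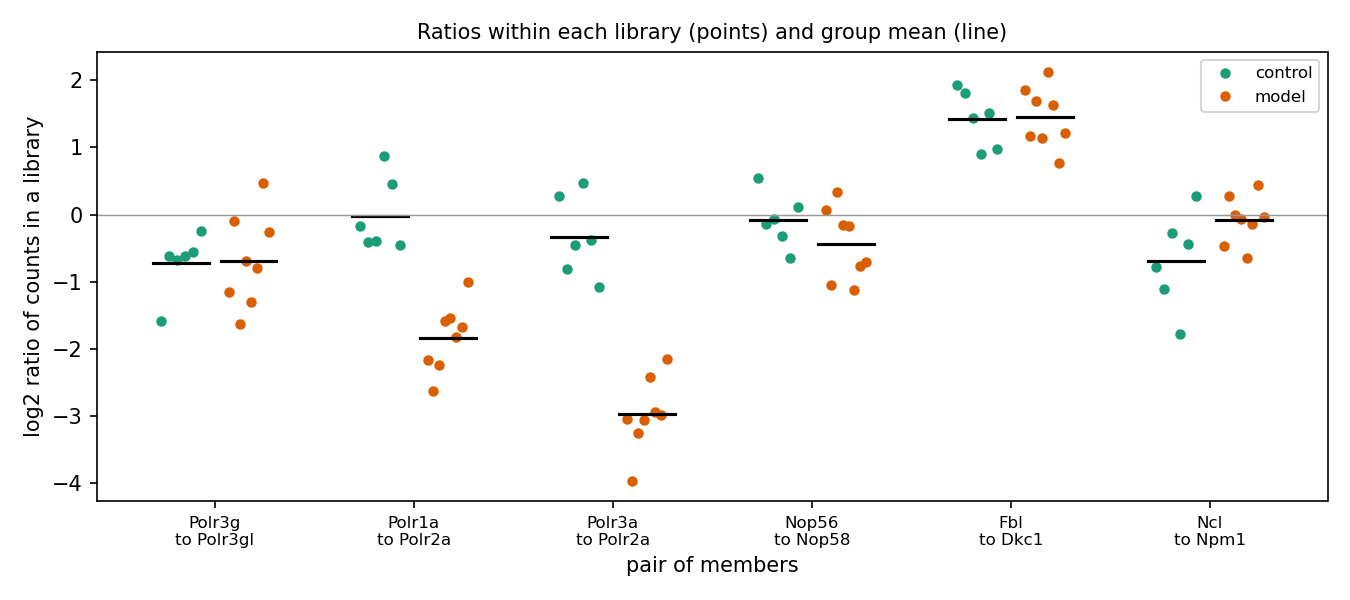
Log2 ratio of counts within each library (points) and group mean (line) for 6 pairs of members, control in green and model in orange. Model and control points are apart for both pairs that contain Polr2a and overlap for the other 4 pairs.

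Over all genes, the difference between groups moved with exonic length, and the members' medians followed it only in part. Genes were put into 5 bins of equal number by exonic length. The shortest bin (67 to 2124 bases) had a median log2 fold change of -0.23 over all genes, and the longest bin (7305 bases or more) one of 0.28. Among members it was -0.63 for the 13 in the shortest bin, of which 0 were higher and 4 lower, and 1.12 for the 7 in the longest, of which 4 were higher and 1 lower. The bins between them, from short to long, had member medians of -0.041 (16 members), 0.33 (15) and -0.061 (11), against -0.088, 0.0050 and 0.11 over all genes. The median exonic length was 1650 bases for the subunits shared by all 3 enzymes, 3847 for nucleolar factors and 4171 for all genes tested. Libraries also differed along length within a group. For this, each gene's log2 CPM was taken relative to its mean over all libraries. The slope of that deviation on log2 exonic length was 0.28 in control 6 and 0.30 in model 7, against -0.27 in control 1 and -0.24 in control 4. Control 6 was the lowest control in 18 of 30 polymerase subunits. With an offset for length and GC content, 22 of the 24 calls were kept, with 2 subunits higher and 8 lower and 13 nucleolar factors higher and 2 lower. The medians were then -0.33 for subunits and 0.46 for nucleolar factors.

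Partner genes of the same pathways were read from lists, with log2 fold changes for the genes named. Over all genes tested, 26.6% were called higher and 21.3% lower. The shares called higher and lower were 33.3% and 2.78% in the small subunit list and 51.2% and 0% in large subunit assembly. They were 54.5% and 9.09% among snoRNP partners, and 6.25% and 31.25% among exosome and trimming genes. Of 36 further genes of the small subunit processome and small subunit maturation, 12 rose and 1 fell (median log2 fold change 0.42). Nol10 led with 2.14 (SE 0.32), and Imp3, a protein of the U3 particle, fell by 0.95 (SE 0.29). With library totals, 6 of this list were higher and 5 lower; 3 were lower without control 6 and 2 without model 5 or control 3. Of 41 genes of large subunit assembly, 21 rose and 0 fell by edgeR, with a median log2 fold change of 0.73. Lower genes numbered 2 at an unadjusted p under 0.05, 2 by DESeq2's Wald test and 2 by limma-voom. With library totals 13 were higher and 2 lower, and without model 7 and model 8 15 were higher and 4 lower (2 lower without either alone). Urb1 was highest at 2.31 (SE 0.41), with 3.01 to 12.0 CPM in model and 0.424 to 2.63 CPM in control. Of 11 snoRNP partners, 6 rose and 1 fell: Tcof1, treacle, which supports Pol I transcription and snoRNP work, was at 1.82 (SE 0.33), and the assembly factor Znhit3 fell by 1.46 (SE 0.35). Of 16 genes of the RNA exosome and trimming, which shorten precursor ends, 1 rose, the nuclease Dis3 (1.21, SE 0.28), and 5 fell, C1d most (-1.33, SE 0.33). The count of higher genes was 4 without model 3, 3 without model 1, 3 without control 6, and 2 without model 4, model 5 or control 3.

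Factors that load the polymerases or act in pausing and elongation were mostly without a call. Values in parentheses are log2 fold changes. The median was 0.38 for Pol I factors and 0.43 for pausing and elongation factors, and below 0 for the other lists. Over all genes tested, 26.6% were called higher and 21.3% lower. Of 7 Pol I initiation and termination factors, 0 rose by edgeR, DESeq2's Wald test or limma-voom (2 at an unadjusted edgeR p under 0.05, and 1 called without model 3, model 5 or control 2), and 1, Taf1b of the promoter selectivity complex, fell (-0.91, SE 0.22). Of 18 Pol II general factors, 1 rose and 6 fell (median -0.31). Gtf2f1, of TFIIF, rose (0.93, SE 0.25), and Gtf2h4, of TFIIH, fell most (-1.46, SE 0.22). Of 22 pausing and elongation factors, 4 rose and 2 fell: Ccnt1, the cyclin of P-TEFb, rose (1.14, SE 0.26) and Supt4a fell (-1.28, SE 0.30). The count of higher genes moved with single libraries, to 8 without control 6, 7 without model 3 and 2 without model 2. With library totals, 1 of these was higher and 4 lower. Of 17 Pol III initiation factors and regulators, 1 rose and 6 fell (median -0.41); 3 were lower without control 4 and 9 without model 7. Higher genes numbered 2 without model 1, without model 4 or without control 6. Bdp1, of TFIIIB, rose (1.57, SE 0.31), while Snapc2, of the complex that serves small nuclear RNA genes, fell (-1.64, SE 0.24). Maf1, the repressor of Pol III, was among those that fell (-1.21, SE 0.23); it was named after its value was seen.

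Regulators and precursors of ribosome production moved in both directions. Of 9 tested genes of the Myc network, 5 rose and 2 fell, against 26.6% higher and 21.3% lower over all genes tested. Myc, a transcription factor known to drive ribosome genes, was at 31.5, 62.4 and 103 CPM in model and 1.48, 2.18 and 4.71 CPM in control (log2 fold change 4.59, SE 0.36, adjusted p = 1.19e-08). Mxd1, a partner of Max that opposes Myc, was at 96.3, 144 and 168 CPM in model and 1.74, 2.95 and 3.91 CPM in control (log2 fold change 5.54, SE 0.25, adjusted p = 2.5e-11). Both thus rose, without overlap of the groups; Myc was named after its value was seen. Mycl fell (log2 fold change -3.63, SE 0.33). Of 12 tested genes of pyrimidine nucleotide supply, 4 rose and 3 fell. These shares, 33.3% higher and 25% lower, were near the 26.6% and 21.3% over all genes tested. Uridine phosphorylases were at both ends, with Upp1 furthest up (log2 fold change 4.94, SE 0.36) and Upp2 furthest down (log2 fold change -1.74, SE 0.26). Ctps, which makes CTP from UTP, was named after its value was seen and rose from 2.02, 3.76 and 4.92 CPM in control to 8.51, 13.3 and 26.8 CPM in model (log2 fold change 2.12, SE 0.31, adjusted p = 2.13e-05).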

How the data were processed

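Liver RNA of 14 samples, 8 model and 6 control, was sequenced after oligo(dT) selection, per the labels' protocols. The authors deposited 1 table of raw counts per gene for each sample; alignment used HISAT2 against GRCm39, per the submitters' processing notes, and no label names the program that counted reads, its handling of strand or its gene models (not given in the sources used here). Summary lines that name no gene held 27.35% to 45.56% of a file's total and were left out. Among them, multi-mapped reads were 13.39% to 18.56% and reads ambiguous between genes 3.184% to 5.946%. No replicate pair agreed within sampling noise.

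Groups came from the labels. Counts were tested with edgeR 4.0.16 (R 4.3.3): filterByExpr, TMM factors, robust quasi-likelihood test of model against control over 12915 genes, and Benjamini-Hochberg adjustment, with calls at an adjusted p under 0.05. The script was tested on simulated data. Log2 CPM used a prior count of 2. Ratios of counts were compared with a two-sided exact permutation test over 3003 assignments. Exonic lengths came from GENCODE vM21 (GRCm38), matched by Ensembl ID, and join all annotated exons of a gene over its transcripts. Promoter windows came from RefSeq (GRCm38.p6), the first in the table where a gene had several.

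Alternatives were library totals, DESeq2 1.42.0 size factors and Wald test, upper-quartile factors, no low-count filter, limma-voom (limma 3.58.1), a length and GC offset, a replicate block, and leaving out libraries. The members and gene lists were chosen with earlier results of these data known. Values are given for the largest subunits, Fbl, Ncl, Npm1, Dkc1, the ratio pairs, and in each role class up to 3 called members in each direction with the largest change and 5 CPM or more on average in either group; of each other list, the called gene furthest up and furthest down. A member that counts in the totals is not reported here by name.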

Additional observations from a re-analysis of the deposited data

Results flagged for a closer look

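Single libraries stood far from the rest of their group in 2 of 68 groups examined, and chance gives this in about 1 in 20 groups. Polr2m was at 84.5 CPM in control 4, against 64.5 to 71.4 CPM in the other controls. The log2 ratio of Polr3g to Polr3gl was -1.58 in control 1, against -0.67 to -0.24 in the other controls.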

How the results depend on the processing

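No called member turned direction under any alternative run. Members called lower numbered 9; they were 19 with library totals, 15 with upper-quartile factors and 6 to 15 when 1 library was left out (15 without control 6). Polymerase subunits called lower numbered 15 with library totals, 12 with upper-quartile factors, 10 with DESeq2's Wald test and 4 to 11 when 1 library was left out (11 without control 6). Nucleolar factors called higher were 8 with library totals; those called lower were 1 without a low-count filter, 1 without model 3 and model 4, 1 with a replicate block and 1 to 3 when 1 library was left out. The Polr3a log2 fold change turned to 0.16 without control 6 (adjusted p = 0.712) and ran from -0.42 to 0.16 over single libraries left out. The log2 ratio difference of Polr3g to Polr3gl turned to -0.23 without model 7 and model 8 and to the same value with the block of replicate numbers, which holds the same libraries, and ran from -0.14 to 0.17 over single libraries left out; that of Fbl to Dkc1 ran from -0.082 to 0.12 and that of Ncl to Npm1 from 0.38 to 0.80. With the replicate block, the Polr1a to Polr2a difference was -1.98 and the Polr3a to Polr2a log2 ratio difference was -2.78, both at adjusted p = 0.0938, since 6 pairs allow no p below 0.03125 in the sign-flip test. Deviations of same-numbered libraries had correlations of -0.34 to 0.36 over 6 numbers. The labels do not say whether the numbers pair the samples, and these correlations cannot settle it. The main test did not treat them as pairs. Under the block, 20 of the 24 calls were kept, and those of Polr2k, Utp20, Nop16 and Fbl were not (adjusted p from 0.087 to 0.173). The cause of these shifts was not tested. The 29 members that were called or chosen for values gave 696 single-gene values under alternatives. Of these, 636 kept direction and side of the threshold, 53 lost the call, 6 gained one and 1 turned. Most members without a call are outside that count. Over all 62 members, 10 gained a call with library totals, 8 without control 6 and 6 with upper-quartile factors.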
